A study of Neurospora crassa with 12 samples.

Results

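The genes described here are those named as heterokaryon incompatibility genes of the filamentous fungus Neurospora crassa. They were chosen as 5 gene identifiers, each paired with a gene name, out of 9730 genes counted. In RefSeq's gene table for assembly NC12, 3 of the 5 identifiers carry the name they were paired with, which are pin-c (NCU03494), het-6 (NCU03533) and vib-1 (NCU03725). The other 2 do not. NCU03125, paired with het-c, and NCU07887, paired with un-24, have no symbol in that table and lie on linkage groups I and III. The table gives the name het-c to NCU03493 and un-24 to NCU03539, both on linkage group II. All 7 genes are therefore described, with NCU03125 and NCU07887 called by identifier and given no role.

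The samples were mycelium of 3 strains, with 4 polyA RNA libraries each and 12 in all. The wild type N150 (WT) is labelled mat A. Strain NKL2 is labelled mat A with the heterochromatic region LGIIK9het25 replaced by the hph marker (ΔLGIIK9het25), and strain N3944 is labelled "mat x" with dim-5 replaced by the bar+ marker (Δdim-5). DIM-5 is the methyltransferase that places the heterochromatin mark H3K9me3. All strains were grown for 16 h at 32 °C with shaking in Vogel's medium with 1.5% sucrose, so no medium or age differs between the groups. Each strain is 1 isolate, and the labels do not say whether its libraries came from separate cultures, so the p-values measure the spread between these libraries. The sources used here do not say which alleles the strains carry at the incompatibility loci.

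When hyphae of different individuals of N. crassa fuse, the mixed cell lives only if both carry compatible alleles at the het loci. Otherwise the fused compartment is walled off and dies, a reaction called heterokaryon incompatibility. The products that recognise each other are often allelic or come from neighbouring genes. HET-C is a glycine-rich protein of the plasma membrane, and PIN-C, encoded next to it, is a protein with a HET domain that reacts with HET-C of the other type. HET-6, another HET domain protein, and UN-24, the large subunit of ribonucleotide reductase, are inherited together as a haplotype. VIB-1 is a transcription factor with an Ndt80-like DNA-binding domain. It is needed for the death reaction and for expression of het-6, pin-c and tol, and it also takes part in the response to carbon and nitrogen limitation.

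Libraries held 7164944 to 23925695 reads in genes, and 3.62% to 36.8% of the reads of a library lay outside genes. Replicate 2 of WT and replicate 2 of ΔLGIIK9het25 stood apart in that share, at 36.8% and 31.8%. The WT share averaged 19.4%, that of ΔLGIIK9het25 14.1% and that of Δdim-5 5.52% (exact two-sided permutation p = 0.0286 for Δdim-5 against WT, the smallest that 4 against 4 libraries can give, and 0.172 adjusted over 6 tests). The dim-5 gene had 0.0335 CPM in Δdim-5 against 7.3 CPM in WT. CPM are counts divided by a library's TMM-scaled total and set to a common depth. All 3 hyphal markers listed for the labelled tissue had counts in every library, among them the Woronin body gene hex-1. The 6 conidial markers also had counts in every strain, and their summed level ran from 354 to 2450 CPM in WT, from 165 to 1540 CPM in ΔLGIIK9het25, and from 494 to 15500 CPM in Δdim-5. The highest value was that of Δdim-5 replicate 2, where the hydrophobin gene eas made up 14400 CPM.

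All 7 genes were transcribed in every library and passed the filter on low counts. Per kilobase of the reference gene length, vib-1 was the most abundant, with a mean of 93.9 CPM per kb over the 12 libraries, a level above that of 91.2% of 8495 tested genes with a length. NCU07887 followed with 72.4 CPM per kb and NCU03125 with 65.7 CPM per kb. The level of un-24 was 32.9 CPM per kb and that of het-c 27.5 CPM per kb, both above the median of 12.3 CPM per kb over the tested genes. The HET domain genes were the lowest, het-6 with 7.1 CPM per kb and pin-c with 3.59 CPM per kb, the latter above only 21.7% of tested genes. This order was not fixed at the top. The level of vib-1 was above that of NCU07887 in 8 of 12 libraries, NCU07887 was above NCU03125 in 8 of 12, and un-24 was above het-c in 9 of 12. In all 12 libraries NCU03125 was above un-24, het-c was above het-6, and het-6 was above pin-c. The lowest count of pin-c was 57 reads, with a counting error of 13.2%, where the lowest count of vib-1 was 1766 reads, with a counting error of 2.38%.

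**Figure D1:**
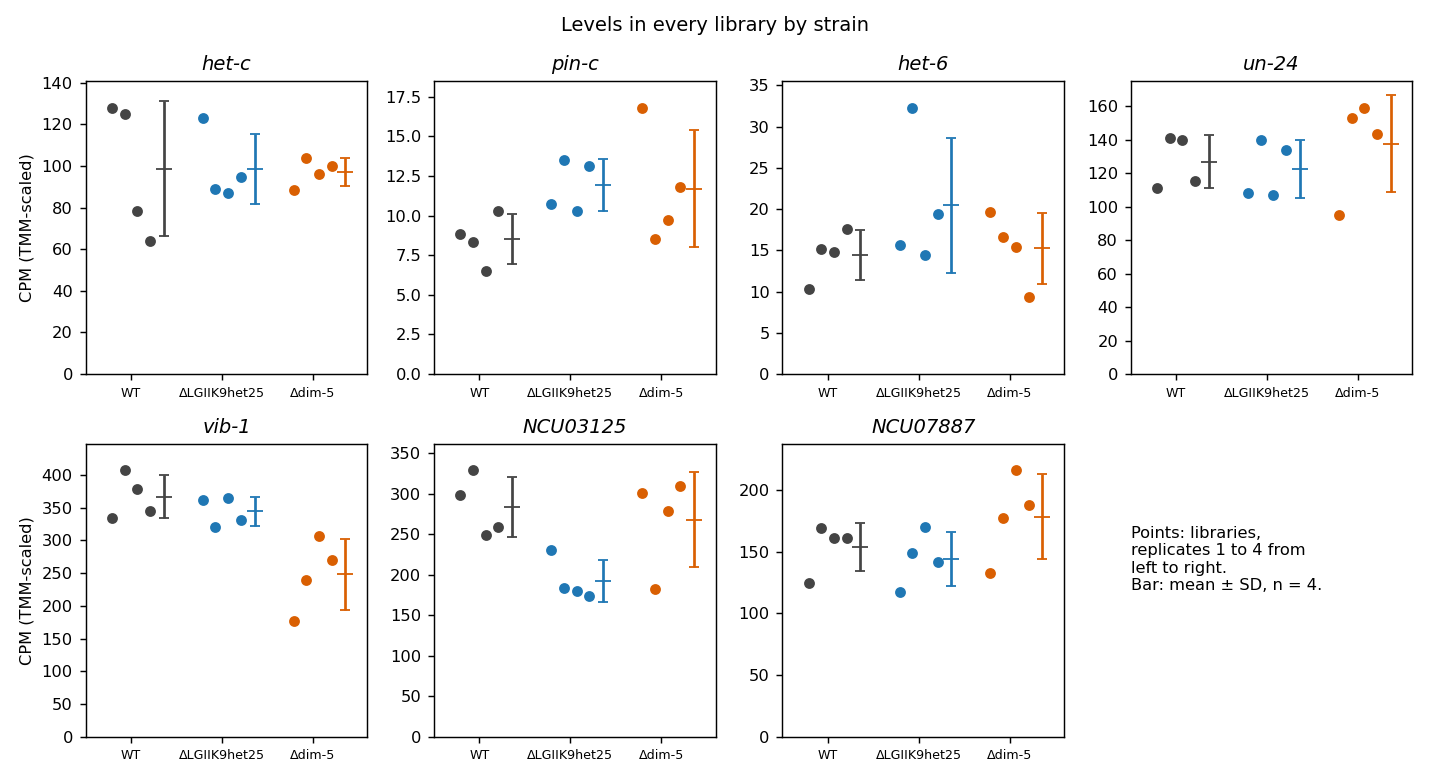
Levels in CPM (TMM-scaled, y axis from 0) of the 7 genes in each library, by strain, with the mean and SD of 4 libraries at the right of each group. The 4 Δdim-5 libraries lie below all others for vib-1, and the strains overlap for het-c, het-6, un-24 and NCU07887.

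The recognition gene het-c had nearly the same mean level in the 3 strains. From replicate 1 to replicate 4 the WT libraries gave 128, 125, 78.3 and 63.8 CPM, the ΔLGIIK9het25 libraries 123, 89, 87.2 and 94.7 CPM, and the Δdim-5 libraries 88.3, 104, 96.1 and 99.8 CPM. The spread was widest in WT, and all values of both mutants lay within the WT range. The means were 98.8 ± 32.6, 98.5 ± 16.8 and 97.1 ± 6.74 CPM (SD, n = 4). The edgeR test put the log2 fold change from WT at 0 for ΔLGIIK9het25 (SE 0.212, adjusted p = 0.995) and at -0.02 for Δdim-5 (SE 0.212, adjusted p = 0.955). The 95% interval of the fold change ran from 0.726 to 1.37 for ΔLGIIK9het25 and from 0.716 to 1.35 for Δdim-5, and differences within these ranges were not detectable with this spread.

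Its partner pin-c lies directly beside het-c in the reference order, with no other annotated gene between them and no overlap. In the same replicate order WT gave 8.86, 8.35, 6.48 and 10.3 CPM, ΔLGIIK9het25 gave 10.7, 13.5, 10.3 and 13.1 CPM, and Δdim-5 gave 16.8, 8.52, 9.69 and 11.8 CPM. All 4 ΔLGIIK9het25 libraries lay above all WT libraries, the nearest of them differing by less than the rounding of 10.3 CPM, while Δdim-5 overlapped both other strains. Relative to WT, pin-c in ΔLGIIK9het25 came to a log2 fold change of 0.49 ± 0.24 (SE, 95% interval -0.03 to 1.01, unadjusted p = 0.062, adjusted p = 0.35 in edgeR). It was 0.46 in Δdim-5 (SE 0.239, 95% interval -0.06 to 0.98, adjusted p = 0.215). Neither passed the test, and both intervals reach to about a doubling in fold, at 2.01 and 1.97.

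For the linked genes het-6 and un-24 no difference between strains passed the test either. The levels of het-6, again from replicate 1 to replicate 4, were 10.3, 15.2, 14.8 and 17.6 CPM for WT, 15.7, 32.3, 14.4 and 19.4 CPM for ΔLGIIK9het25, and 19.6, 16.6, 15.4 and 9.38 CPM for Δdim-5. The strains overlapped, and the highest value by far was that of ΔLGIIK9het25 replicate 2, a library that also stood apart in its reads outside genes. For ΔLGIIK9het25 against WT edgeR put the log2 fold change of het-6 at 0.5 (SE 0.292, adjusted p = 0.469), and at 0.19 without that library. For Δdim-5 against WT it was 0.07 (SE 0.291, adjusted p = 0.903).

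The un-24 gene, whose product makes deoxyribonucleotides for DNA synthesis besides its part in recognition, was at 111, 141, 140 and 115 CPM in replicates 1 to 4 of WT. The ΔLGIIK9het25 libraries gave 108, 140, 107 and 134 CPM, and the Δdim-5 libraries 95.2, 153, 159 and 143 CPM. In Δdim-5, 3 libraries lay above the WT range and 1 below it. By edgeR, the log2 fold changes of un-24 from WT were -0.05 in ΔLGIIK9het25 (SE 0.175, adjusted p = 0.936) and 0.12 in Δdim-5 (SE 0.175, adjusted p = 0.704). Their 95% intervals in fold ran from 0.742 to 1.25 and from 0.834 to 1.41. Between the mutants the log2 fold changes of these 4 recognition genes, Δdim-5 over ΔLGIIK9het25, were -0.02 for het-c, -0.03 for pin-c, -0.43 for het-6 and 0.17 for un-24, and their adjusted p by edgeR were 0.962, 0.952, 0.352 and 0.562.

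The regulator vib-1 was the exception. Its WT libraries gave 335, 407, 379 and 345 CPM from replicate 1 to replicate 4, those of ΔLGIIK9het25 361, 320, 365 and 331 CPM, and those of Δdim-5 177, 239, 306 and 270 CPM. Every Δdim-5 library lay below every library of the other strains, and WT and ΔLGIIK9het25 overlapped. Libraries without overlap, in either direction, were found for 20.3% of all tested genes in Δdim-5 against WT and for 21.3% between the mutants. The WT mean was 366 ± 32.8 CPM (SD, n = 4), and vib-1 fell in Δdim-5 to a mean of 248 ± 54.9 CPM, a fold change of 0.677 with a 95% interval of 0.531 to 0.862. The edgeR log2 fold change was -0.56 with an SE of 0.162 and an adjusted p of 0.0302. The ΔLGIIK9het25 mean of 344 ± 22.1 CPM stood at -0.09 on the log2 scale relative to WT (SE 0.161, adjusted p = 0.867). Between the mutants, vib-1 in Δdim-5 had a log2 fold change of -0.47 against ΔLGIIK9het25 (SE 0.162, 95% interval -0.82 to -0.12, adjusted p = 0.0629), which did not pass the test, so the effects of the mutants are not shown to differ. It passed with DESeq2 (adjusted p = 0.0215), with limma-voom (0.0469), with library totals alone (0.0435) and without Δdim-5 replicate 3 (0.0256), and the highest adjusted p over the 18 alternatives was 0.136.

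The call of vib-1 lay close to the threshold, while its log2 fold change stayed between -0.67 and -0.43 whichever library was left out. Without WT replicate 2, 3 or 4 the adjusted p was 0.0764, 0.0663 and 0.0514, and without Δdim-5 replicate 1 or 2 it was 0.0624 and 0.068, with log2 fold changes of -0.43 to -0.59 in these 5 fits. The share of reads outside genes averaged 5.52% in Δdim-5 and 19.4% in WT. That difference did not pass the permutation test after adjustment (p = 0.172). With this share as covariate the log2 fold change of vib-1 was -0.63 with an adjusted p of 0.0828. Without both libraries that had over 30% of reads outside genes it was -0.51 with an adjusted p of 0.0797. In a fit of WT and Δdim-5 alone the adjusted p was 0.0641. Over the 18 alternatives run it lay between 0.00577 with DESeq2 and 0.0828, and the log2 fold change between -0.67 and -0.43. The hyphal marker hex-1 was at 4070 CPM in Δdim-5 and 5740 CPM in WT, without overlap of the libraries (log2 fold change -0.5, adjusted p = 0.151 in edgeR). The 3 hyphal markers summed to 3440 to 4930 CPM in Δdim-5 against 4950 to 7200 CPM in WT. Most of that sum was hex-1, with 3200 to 4650 CPM in Δdim-5 and 4690 to 6800 CPM in WT. The hyphal fusion gene so, another of the 3, was called lower in Δdim-5, at 77.8 CPM, than in ΔLGIIK9het25, at 121 CPM (adjusted p = 0.0085 in edgeR). Against WT, at 94.4 CPM, so in Δdim-5 overlapped and was not called (log2 fold change -0.28, adjusted p = 0.211). In ΔLGIIK9het25 the log2 fold change of so from WT was 0.36 (adjusted p = 0.218). The third marker, NCU02793, was not called in Δdim-5 against WT (log2 fold change -0.67, adjusted p = 0.0791). The part of these markers in the result for vib-1 was not tested. In these bulk samples fewer cells of a type cannot be told apart from less RNA per cell.

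**Figure D2:**
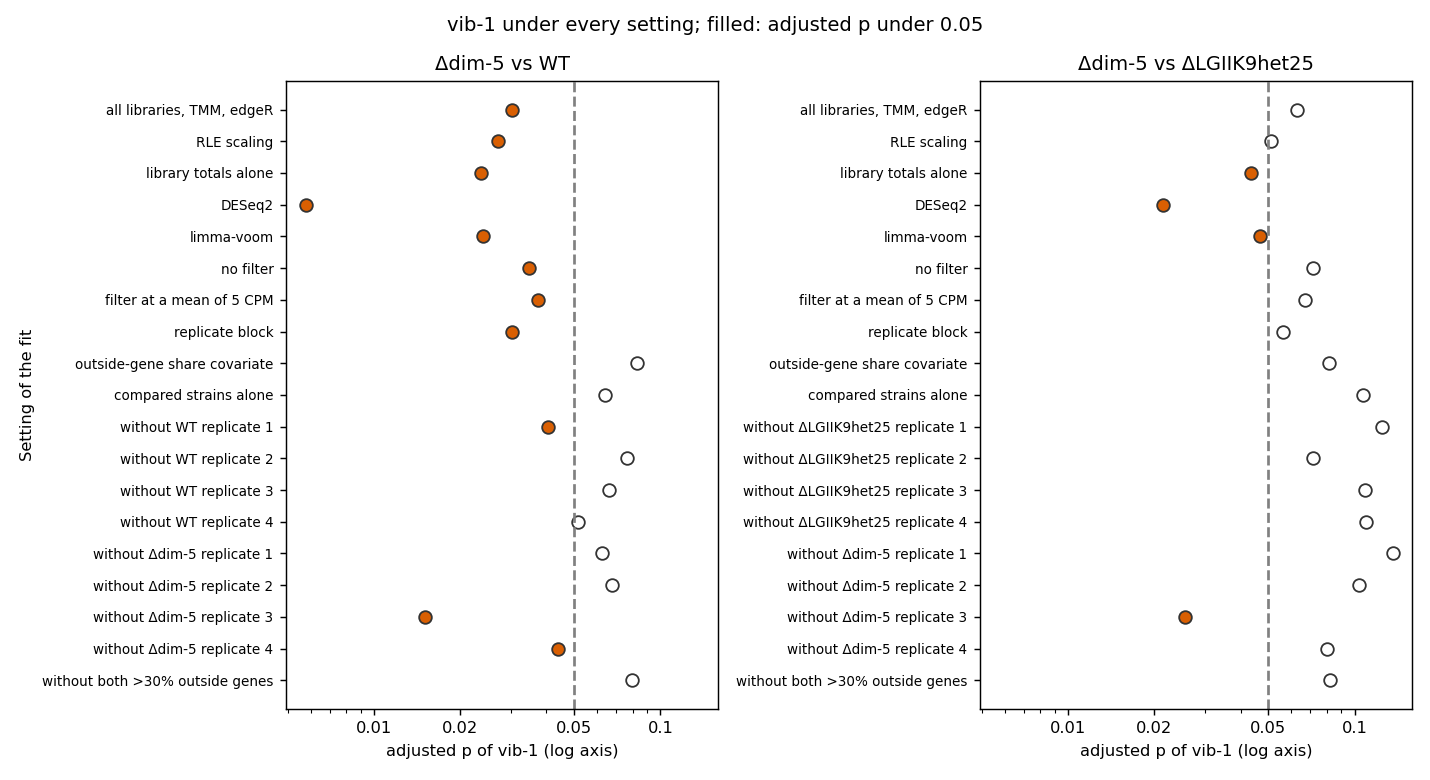
Adjusted p of vib-1 (x axis, log scale) under every setting of the fit (rows) for Δdim-5 against WT and against ΔLGIIK9het25, filled where it was under 0.05. Against WT the values lie on both sides of 0.05, from 0.00577 to 0.0828.

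**Figure D3:**
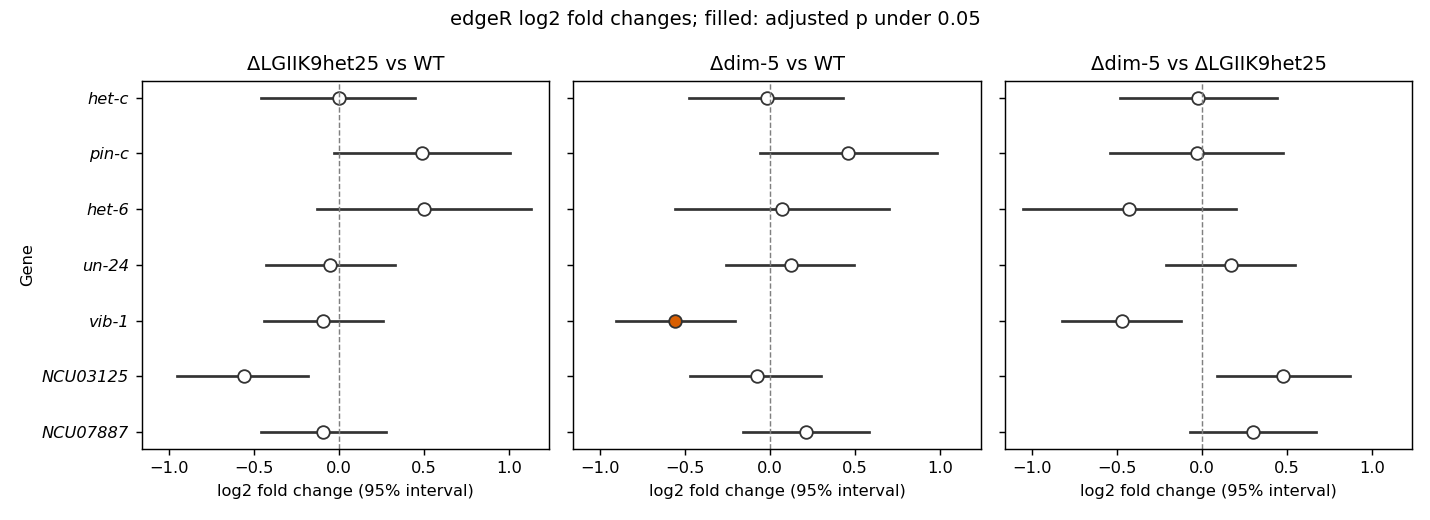
Log2 fold changes from edgeR (x axis) with 95% intervals for the 7 genes (rows) in the 3 comparisons (panels), filled where the adjusted p was under 0.05. Only vib-1 in Δdim-5 against WT, at -0.56, is filled, and the intervals of het-c span 0 in every panel.

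The identifiers that were paired with the names het-c and un-24, but do not carry them in the reference, passed no test. NCU03125 had 298, 329, 249 and 259 CPM in replicates 1 to 4 of WT. Those of ΔLGIIK9het25 gave 231, 184, 180 and 174 CPM, and those of Δdim-5 gave 301, 182, 279 and 310 CPM. All ΔLGIIK9het25 libraries lay below all WT libraries, and Δdim-5 overlapped both. For ΔLGIIK9het25 against WT edgeR put it at -0.56 on the log2 scale (SE 0.179, unadjusted p = 0.00772), whose adjusted p of 0.11 did not pass. Between the mutants the log2 fold change was 0.48 for Δdim-5 over ΔLGIIK9het25 (SE 0.179, adjusted p = 0.0864), and without Δdim-5 replicate 2, the low library, it was 0.61 with an adjusted p of 0.0193.

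NCU07887 had 125, 169, 161 and 161 CPM in replicates 1 to 4 of WT. Those of ΔLGIIK9het25 gave 117, 149, 170 and 142 CPM, and those of Δdim-5 gave 133, 177, 216 and 188 CPM, with overlap between all strains. Replicate 1 was its lowest library in each strain. Its log2 fold changes against WT were -0.09 (SE 0.172, adjusted p = 0.877) and 0.21 (SE 0.172, adjusted p = 0.444 in edgeR). It is the only one of the 7 genes that overlaps another gene in the reference, NCU07886, so its counts, made without regard to strand, are uncertain.

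Counted together, edgeR called 0 of the 7 genes in ΔLGIIK9het25 against WT at an adjusted p under 0.05, where 4.32% of all 8496 tested genes were called. At an unadjusted edgeR p under 0.05 there was 1, NCU03125, beside 1339 of all 8496 tested genes. DESeq2 and limma-voom called 0, beside 617 and 306 of all tested genes. In Δdim-5 against WT 1 of 7 was called, vib-1, where 16.5% of all tested genes were called and 7.53% were called lower, so the count is near the background. Between the mutants 0 were called by edgeR, where 16.7% of all tested genes were called. There were 2 at an unadjusted edgeR p under 0.05, vib-1 and NCU03125, beside 2563 of all 8496 tested genes. DESeq2 and limma-voom each called 1, vib-1, beside 1831 and 1481 of all tested genes. Against WT the median log2 fold change of the 7 genes was -0.05 for ΔLGIIK9het25 and 0.07 for Δdim-5, beside -0.01 and 0.01 over all tested genes. Libraries without overlap were found for pin-c and NCU03125 in ΔLGIIK9het25 against WT, where this held for 11.6% of all tested genes, and for vib-1 in Δdim-5 against WT, where it held for 20.3%. They were also found for vib-1 between the mutants, where the share was 21.3%. Both mutants were compared with the same 4 WT libraries.

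The genes het-c, pin-c, het-6 and un-24 lie on linkage group II, the group named in the label of the deleted region. On that group 51 of 907 tested genes (5.62%) were called in ΔLGIIK9het25 against WT, and 316 of 7589 (4.16%) on all others. None of these 4 genes was among them, and each kept a mean of at least 11.9 CPM in the deletion strain. In Δdim-5 against WT 169 genes of the group (18.6%) were called, and again these 4 genes were not among them.

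Some libraries were high or low for several of the genes. Replicate 1 of Δdim-5 had the lowest vib-1 level of all 12 libraries, at 177 CPM, and the lowest un-24 level, at 95.2 CPM. The same library had the highest pin-c level of all, at 16.8 CPM, and within Δdim-5 the highest het-6 level, at 19.6 CPM. Its tol level was 9 CPM, where replicates 2 to 4 of Δdim-5 had 8.67, 13.6 and 10 CPM. The tol level ran from 9.65 to 11.9 CPM in WT and from 9 to 17.8 CPM in ΔLGIIK9het25.

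Genes beside the 7 were compared to see whether changes lay in the surroundings. Of 21 counted genes within 2 places on either side, 16 were tested, and 1 of them was called by edgeR in any comparison, NCU03534, which lies directly beside het-6. It was called in both comparisons of Δdim-5, where 16.5% and 16.7% of all tested genes were called, so 1 of 16 is not above the background. The WT libraries of NCU03534 gave 1.93, 1.32, 0.81 and 0.121 CPM from replicate 1 to replicate 4, those of ΔLGIIK9het25 1.45, 0.331, 0.429 and 0.15 CPM, and those of Δdim-5 8.7, 6.17, 4.61 and 8.53 CPM. The Δdim-5 libraries, with 84 to 211 reads, lay above all others, which held 1 to 22 reads. NCU03534 rose in Δdim-5 with a log2 fold change of 2.72 against WT (adjusted p = 0.0103 in edgeR) and 3.54 against ΔLGIIK9het25 (adjusted p = 0.00254). Both calls were kept in every alternative in which it was tested. Its neighbour het-6 gave log2 fold changes of 0.07 and -0.43 in the same comparisons, neither of which passed the test. Directly beside vib-1, NCU03726 had a log2 fold change of -0.17 in Δdim-5 against WT (adjusted p = 0.564 in edgeR). The next gene on that side, the hyphal fusion gene ham-2, had -0.38 (adjusted p = 0.107). Neither was called, and no neighbour on the other side of vib-1 was tested.

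Related genes came from 4 lists, of other genes of allorecognition (8), of the Ndt80 family with ime-2 (3), of carbon signalling around vib-1 (4) and of cell death (5). Of these 20 genes 0 were called higher and 2 lower in ΔLGIIK9het25 against WT, and 0 higher and 1 lower in Δdim-5 against WT. Between the mutants 2 were called higher in Δdim-5 and 2 lower. The shares called over all tested genes were 4.32%, 16.5% and 16.7% in these comparisons, in either direction. Only 7 of them have a symbol in the reference, and the other 13 are given by identifier with no role. Of those 7, 1 was called lower in ΔLGIIK9het25 against WT and 1 was called higher in Δdim-5 than in ΔLGIIK9het25. In Δdim-5 against WT 0 of the 7 were called by edgeR, DESeq2 or limma-voom, and 2 had an unadjusted edgeR p under 0.05. That limit was passed there by 2557 of all 8496 tested genes, and DESeq2 and limma-voom called 1821 and 1334. The median log2 fold changes of the 7 genes were -0.01, 0.04 and 0.01, beside -0.01, 0.01 and 0.02 over all tested genes. The gene that passed was fsd-1 in both cases, a gene of female sexual development that encodes another protein of the Ndt80 family, to which VIB-1 belongs.

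The fsd-1 gene was at 53, 53.7, 37.6 and 35.5 CPM in replicates 1 to 4 of WT. Those of ΔLGIIK9het25 gave 17.6, 20.3, 24.9 and 16.5 CPM, and those of Δdim-5 gave 70.1, 130, 41.5 and 52.6 CPM. The ΔLGIIK9het25 libraries lay below all others, and those of WT and Δdim-5 overlapped. Between the mutants the level in Δdim-5 was 3.71 times that in ΔLGIIK9het25 (95% interval 2.32 to 5.94, adjusted p = 0.00116 in edgeR), a call kept in all 18 alternatives. Against WT, fsd-1 fell in ΔLGIIK9het25 to 0.441 times the WT level (log2 fold change -1.18, SE 0.31, adjusted p = 0.0498). That call was at the threshold and was lost in 14 of 18 alternatives, among them the omission of any single WT or ΔLGIIK9het25 library, with adjusted p from 0.0656 to 0.142. In Δdim-5 fsd-1 was 1.64 times the WT level (adjusted p = 0.134), a log2 fold change of 0.71. Without Δdim-5 replicate 2, the library with 130 CPM and the high eas level, that value was 0.28 (adjusted p = 0.467), and without Δdim-5 replicate 3 it was 0.92 (adjusted p = 0.0479), the only 1 of 8 such fits to be called.

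The other 6 genes with a symbol did not pass the test in any comparison. The tol gene, whose HET domain product mediates incompatibility between mating types, averaged 10.7 ± 1.24 CPM in the WT libraries, 12.1 ± 3.94 CPM in those of ΔLGIIK9het25 and 10.3 ± 2.24 CPM in those of Δdim-5 (SD, n = 4), a level close to that of pin-c before length is taken into account. The kinase gene prk-8, also known as ime-2, had log2 fold changes against WT of -0.01 and 0.12. For col-26, a transcription factor gene of glucose sensing, they were -0.42 in ΔLGIIK9het25 (adjusted p = 0.323) and -0.09 in Δdim-5. For cre-1, the carbon catabolite repressor gene, they were -0.25 and -0.43 (adjusted p = 0.549 and 0.102 in edgeR). For the cellulase regulator gene clr-1 they were 0.03 and 0.04, and for clr-2, another such gene, 0.65 and 0.31.

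**Figure D4:**
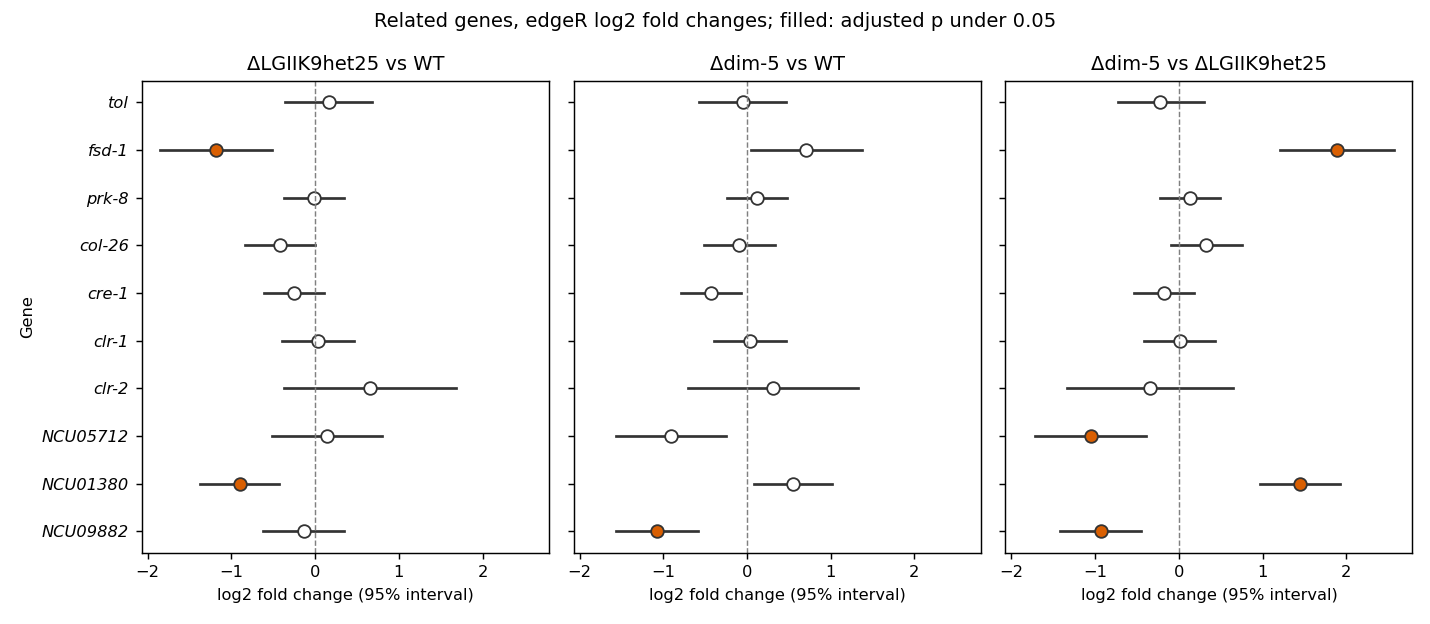
Log2 fold changes from edgeR (x axis) with 95% intervals for the 7 related genes with a symbol and 3 called identifiers without one (rows) in the 3 comparisons (panels), filled where the adjusted p was under 0.05. The points of fsd-1 at -1.18 and 1.89 are filled, and those of tol lie near 0 in all panels.

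Of the 13 identifiers without a symbol, 1 was called in ΔLGIIK9het25 against WT, 1 in Δdim-5 against WT and 3 between the mutants, beside 4.32%, 16.5% and 16.7% of all tested genes. NCU01380 was called lower in ΔLGIIK9het25, at 27.8 ± 7.95 CPM, than in WT, at 52 ± 10 CPM (SD, n = 4, edgeR log2 fold change -0.9, adjusted p = 0.0339). It was called higher in Δdim-5 than in ΔLGIIK9het25 (log2 fold change 1.45, adjusted p = 0.000615). The first call was lost without replicate 3 or 4 of WT or replicate 1, 2 or 3 of ΔLGIIK9het25 (adjusted p from 0.0652 to 0.117) and in 2 other alternatives, and the second was kept in all 18 alternatives. NCU09882 fell in Δdim-5 to 72.1 CPM, with 151 CPM in WT, a log2 fold change of -1.07 (adjusted p = 0.00594 by edgeR). Of the alternatives run, that call was lost only with the outside-gene share as covariate (adjusted p = 0.0981). NCU05712 was lower in Δdim-5 than in ΔLGIIK9het25 (log2 fold change -1.05, adjusted p = 0.0339), a call lost without ΔLGIIK9het25 replicate 1 or 2 or Δdim-5 replicate 2, 3 or 4 (adjusted p from 0.0502 to 0.0972). It was also lost with the outside-gene share as covariate (-0.78, adjusted p = 0.14) and without both libraries of high outside-gene share (-0.93, adjusted p = 0.0843). Against WT its log2 fold change in Δdim-5 was -0.91 (adjusted p = 0.0609). It was called there in 5 alternatives, with library totals alone (adjusted p = 0.0423), DESeq2 (0.0272), the replicate number as a block (0.0442), the compared strains alone (0.0463) and without WT replicate 3 (0.0362), and the highest adjusted p was 0.364, with the outside-gene share as covariate.

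Likeness of pattern was measured as the mean absolute difference, over the 12 libraries, between log2 (CPM + 0.5) values centred on each gene's own mean. The genes most like vib-1 were NCU09313 and NCU04463, at 0.112 each, and mdk-1 at 0.114, where the median tested gene was at 0.38. Those most like het-c were stk-57 at 0.117, ff-1 at 0.118 and NCU03819 at 0.118. For pin-c they were NCU02389 at 0.119, NCU03118 at 0.134 and aro-3 at 0.135, and for het-6 they were NCU16316 at 0.137, NCU05757 at 0.178 and NCU06974 at 0.179. For un-24 they were NCU01215 at 0.086, NCU03924 at 0.094 and NCU06866 at 0.097. For NCU03125 they were NCU08169 at 0.139, NCU17116 at 0.147 and NCU09295 at 0.147, and for NCU07887 they were NCU02962 at 0.101, NCU07587 at 0.106 and NCU09481 at 0.106. None of the other 6 genes was among the 3 most alike of any of the 7.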

How the data were processed

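PolyA RNA of 12 mycelial libraries was sequenced as single reads of 118 nt. The authors deposited raw read counts per gene, 1 table per library. HISAT2, HTSeq and DESeq2 are named in the submitters' processing notes, and the file names say that counting ignored strand. Tool versions, the genome build and the annotation were not given in the sources used here.

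Titles gave each library its strain. Library totals leave out 5 entries without a gene name: reads outside genes (3.62% to 36.8% of a library), ambiguous reads (1.78% to 3%), reads aligned to several places (0.0804% to 0.251%), unaligned reads (6.25% to 19.6%), and an entry for low quality, which was 0 throughout. CPM were computed with TMM-scaled totals. Genes kept by filterByExpr (8496 of 9730) were fitted with 1 mean per strain in R 4.3.3 with edgeR 4.0.16 (quasi-likelihood F-test, 9 residual degrees of freedom), called at a Benjamini-Hochberg adjusted p under 0.05 over all tested genes. P values are two-sided. Each SE follows from the F statistic of its contrast, and each 95% interval from the SE. The procedure was tested on simulated data.

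RefSeq's table for NC12 held 9729 of the 9730 identifiers and served for symbols, lengths, linkage groups and neighbours. No coordinates are printed, because the build of the counts is not named. A planned list of HET domain genes and of ribonucleotide reductase genes was not made, because that table holds no product names, and un-24 was taken by its symbol. The 7 genes described were all named. From each list the genes called in a comparison were named, the neighbours were the 2 annotated genes on each side, and the 3 genes most alike in pattern were taken for each gene. NCU03534 is the only neighbour named for a call, and ham-2 and NCU03726 were named after their values were seen. The genes and lists were chosen with earlier results of these data known. Alternatives were RLE scaling, library totals alone, DESeq2 1.42.0, limma-voom (limma 3.58.1), no filter, a filter at a mean of 5 CPM, the compared strains alone, the replicate number as a block, the outside-gene share as covariate, and leaving out each library. Leaving out both libraries with over 30% of reads outside genes was added after the data had been seen. No libraries of a strain were duplicates, the smallest chi-square per gene between them being 20.1.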

Additional observations from a re-analysis of the deposited data

Results flagged for a closer look

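Within a strain, the highest and the lowest of the 4 libraries were set against Dixon's 95% critical value for the gap to the next one relative to their whole range, in log2 (CPM + 0.5). Of 21 groups looked at for the 7 genes, 1 was singled out, and chance singles out about 1 in 20. NCU07887 had 125 CPM in WT replicate 1, where the other WT libraries had 161 to 169 CPM.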

How the results depend on the processing

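In the 7 genes, the call of vib-1 in Δdim-5 against WT was the one that alternatives removed. The number of them called there was 1, and 0 with the outside-gene share as covariate, in a fit of those strains alone and without both libraries with over 30% of reads outside genes, with a range of 0 to 1 when leaving out single libraries. Between the mutants it was 0, and 1 with library totals alone, with DESeq2 and with limma-voom, with a range of 0 to 1 when leaving out single libraries. In ΔLGIIK9het25 against WT it was 0 in all 18 alternatives. Of the 20 related genes, 2 were called in ΔLGIIK9het25 against WT, fsd-1 and NCU01380. The number was 1 with RLE scaling, library totals alone, limma-voom, a 5 CPM filter, the covariate or the compared strains alone. It was also 1 without both libraries with a high share, and 0 to 1 when leaving out single libraries. Over all tested genes 367 were called in the main fit, and 196 to 392 under these alternatives. Without both libraries fsd-1 (adjusted p = 0.157 in edgeR) and NCU01380 (0.0778) were not called, so the gene counted there was another. In Δdim-5 against WT 1 was called, and 3 with library totals alone and with the compared strains alone, 2 with DESeq2 and without both libraries, 0 with the covariate, 4 with the replicate block, and 1 to 4 when leaving out single libraries. Over all tested genes 1405 were called in the main fit, 1408 with library totals alone and 1169 with the compared strains alone. It was 1821 with DESeq2, 1306 without both libraries, 1165 with the covariate and 1504 with the replicate block. Leaving out single libraries gave 1061 to 1377. The cause of these shifts was not tested.

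Signs turned only for log2 fold changes near 0 that passed no test. For het-c in ΔLGIIK9het25 against WT the value was 0.01 with RLE scaling, library totals and DESeq2, 0.05 with limma-voom, 0.02 with the filter and with the compared strains alone, 0.03 with the replicate block, 0.13 with the covariate and 0.17 without both libraries. For het-c in Δdim-5 against WT it was 0.04 with limma-voom, 0.02 with the filter, 0.03 with the block, 0.28 with the covariate and 0.1 without both libraries, and between the mutants 0.14 with the covariate. For het-6 in Δdim-5 against WT it was -0.01 with library totals and 0 with limma-voom. For pin-c between the mutants it was 0.01 with the covariate and 0.03 without both libraries. NCU03125 gave 0.04 in Δdim-5 and NCU09882 gave 0.02 in ΔLGIIK9het25 with the covariate, and NCU05712 gave -0.06 in ΔLGIIK9het25 without both libraries. Leaving out single libraries gave ranges of -0.17 to 0.15 for het-c, -0.12 to 0.03 for un-24 and -0.08 to 0.36 for NCU05712 in ΔLGIIK9het25 against WT. The ranges were -0.19 to 0.13 for het-c, -0.07 to 0.24 for het-6 and -0.16 to 0.06 for NCU03125 in Δdim-5 against WT, and -0.11 to 0.1 for het-c and -0.25 to 0.07 for pin-c between the mutants.

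The titles number the replicates alike in each strain. Deviations of same-numbered libraries from their strain means had correlations of -0.203 to 0.518, over 0.1 in 3 of 12 pairs. The highest was that of replicate 1 of WT and ΔLGIIK9het25, and 3 of 12 libraries correlated best with their own number. The share of reads outside genes fell from replicate 2 through 1 and 3 to 4 in both these strains. It was 36.8%, 18.5%, 13.4% and 8.85% in WT, and 31.8%, 13.3%, 6.05% and 5.17% in ΔLGIIK9het25. In Δdim-5 replicate 1 was highest, at 7.29%. Whether the numbers mark a shared batch is not given by the labels. With the replicate block vib-1 had an adjusted p of 0.0302 in Δdim-5 against WT and 0.0563 between the mutants, and over all genes 371, 1504 and 1467 were called in place of 367, 1405 and 1423. The number called over all genes in ΔLGIIK9het25 against WT was 617 by DESeq2 and 196 when genes under a mean of 5 CPM were left out. Depth limits pin-c and het-6 most, with lowest counts of 57 and 104 reads. Counting errors cover counting alone, as PCR copies were not told apart by molecular identifiers.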
